A study of Rattus norvegicus with 3 samples.

Results

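Cell cycle and DNA replication genes were examined in kidney RNA of rats given gamma-aminobutyric acid (GABA). The group holds 37 genes, chosen by name as genes of DNA replication or mitosis, and its probes were found through the RefSeq accession that the array gives for each probe. They fall into 13 genes of S phase, 22 of mitosis and 2 of G1 entry, among 26785 distinct genes or accessions on the array. Male Sprague-Dawley rats, 5 weeks old by the labels (the age at purchase by the study's methods), drank water with 200 ppm GABA (G200) or served as the negative control. The methods give 3 weeks of GABA after a week of adaptation, so the rats were older at collection. The labels give 3 rats per group and name the tissue as kidney outside any tumor. On each of 3 Agilent arrays, control RNA was labelled with Cy3 (green) and G200 RNA with Cy5 (red). No array had the dyes swapped, so a dye effect of a probe and an effect of GABA cannot be told apart. The control was counted as 1 sample, and limma's test of the log ratios leaves its own spread out. A log2 ratio above 0 means more signal in G200.

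Before a cell divides it copies its DNA in S phase and separates the copies in mitosis. Cyclin D1 with Cdk4 opens the way from G1, the Mcm proteins form the helicase that unwinds DNA, and Pcna is the clamp that holds DNA polymerase on its template. Cdk1 with cyclin B drives entry into mitosis, kinesin motors such as Kif11 build the spindle, and the anaphase-promoting complex with Cdc20 ends it. Most tubule cells of an adult kidney are out of the cycle, and transcripts of the mitosis genes come mainly from the few cells that divide. For genes of G1 entry and S phase, such as Cdk4 and Pcna, these arrays do not show which cells the transcripts come from. In bulk tissue, fewer dividing cells and less RNA per dividing cell cannot be told apart.

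Signals of the 37 genes were detected about as often as those of the array as a whole or more often. For 34 of them at least 1 probe was matched, 44 probes in all, and no probe was matched for Mcm5, Top2a and Bub1b. The scanner software marks a spot as well above background in each channel, and a probe was counted where a share over 0.5 of its spots was so marked. On the arrays of replicates 1, 2 and 3, 27, 29 and 30 of the 44 probes passed this mark in the control channel, and 31, 28 and 33 passed it in the G200 channel. Of all spots on the 3 arrays, 59.8% to 62.7% were so marked in green and 56.6% to 63.0% in red. The S phase probes alone fell below this, with 8 of 16 in green on replicate 1 and 8 of 16 in red on replicate 2. Of the 16 S phase probes, 8 were above it in green on all 3 arrays, 8 in red and 7 in both. Of the 26 mitosis probes, 17 were above it in green, 17 in red and 16 in both. Both G1 entry probes passed in both channels. In neither channel on any array were 10 probes detected, 5 of S phase and 5 of mitosis.

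**Figure D1:**
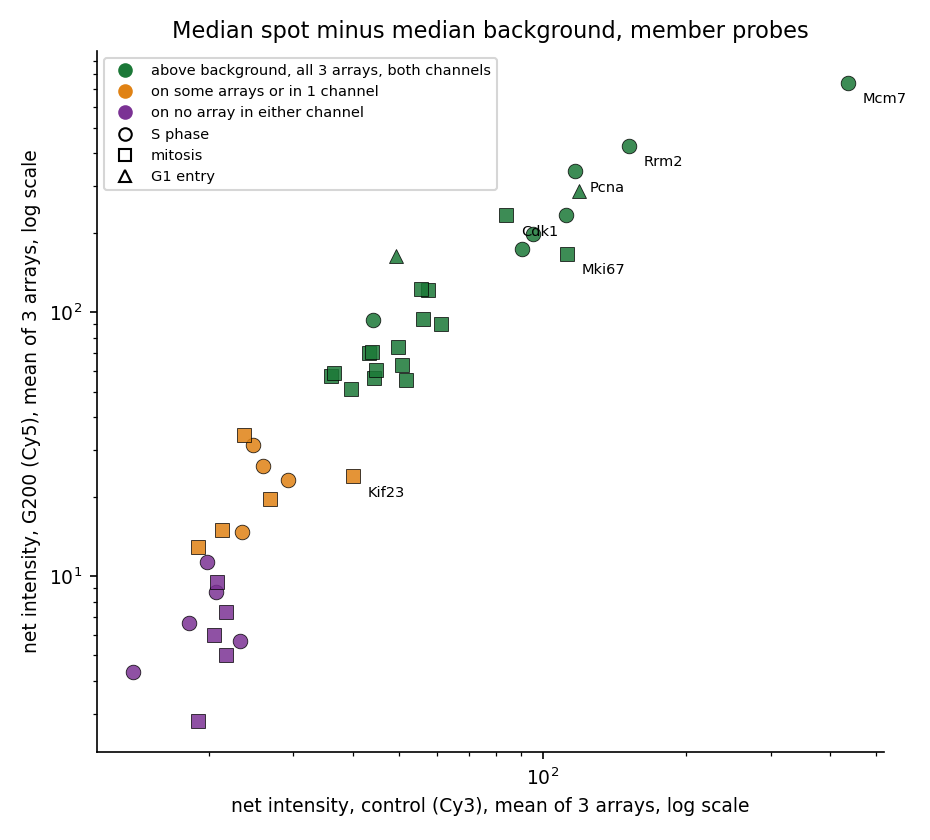
Net intensity (median spot minus median local background, before dye normalization) of the 44 member probes, control on the x axis and G200 on the y axis, each as the mean of 3 arrays on a log scale. Of the 44 probes, 25 passed the background mark on every array in green and in red, and the brightest, for Mcm7, had 416 to 473 units in the control.

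A gene was tested where 1 channel of a probe passed the background mark on each of the 3 arrays, and its brightest such probe was used. This kept 25 of the 37 genes, 8 of S phase, 15 of mitosis and 2 of G1 entry, of 14183 genes tested in all. A gene that passes in 1 channel only is more easily kept where it differs, and 22 of the 25 passed in both. Not tested for low signal were Cdc6, Mcm6, Rrm1 and Tyms of S phase and Ccnb2, Aurkb, Cenpf, Tpx2 and Cdca8 of mitosis. Among these, Tyms came closest, well above background on 2 arrays in green and on 2 in red.

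Of the 25 genes tested, 6 were higher in G200 and 3 were lower at an adjusted p under 0.05 in limma's test against a log2 ratio of 0. Among all 14183 genes, 11.5% were higher and 26.0% were lower at this threshold, and 36.0% of the members were called in either direction against 37.5% of all genes. The genes that rose were Pcna and Rrm2 of S phase, Cdk1, Kif11 and Prc1 of mitosis and Cdk4 of G1 entry. Prc1 was kept for testing through the G200 channel alone and Kif23 through the control channel. Where both channels had to pass, 5 members were higher and 1 was lower, against 11.5% and 23.3% of all genes. The genes that fell were Mcm7 of S phase and Mki67 and Kif23 of mitosis, with the sign of Mcm7 and Mki67 turned positive by median centring of the arrays in place of loess, and that of all 3 by leaving out dye normalization. With loess and an offset of 50 no member changed 2-fold, whereas Cdk4 (1.06) passed that size with the log ratio of the scanner software, as did Prc1 and Kif23, which were not detected on every array in 1 channel, and others did with no dye normalization. A log2 ratio above 0 on all 3 arrays was found for 13 members, against 26.5% of all genes, and one below 0 on all 3 for 5 members, against 41.8%.

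Fewer members passed with 2 arrays than with 3. Without replicate 3, limma called 0 of the 25 members at the adjusted threshold, and 5 at an unadjusted p under 0.05, while 155 of 14311 genes tested were higher and 1351 lower. The 9 called members had adjusted p-values between 0.0736 and 0.210 there, while their ratios stayed near those of all 3 arrays, such as 0.39 for Pcna, 0.39 for Rrm2, 0.33 for Cdk1, 0.51 for Cdk4 and -0.38 for Kif23. Without replicate 1, Pcna, Rrm2, Cdk1 and Cdk4 were called, and without replicate 2 these 4 with Mcm2 and Mki67. Among all genes, 5.87% were higher and 18.3% lower without replicate 1, and 11.4% and 22.9% without replicate 2.

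**Figure D2:**
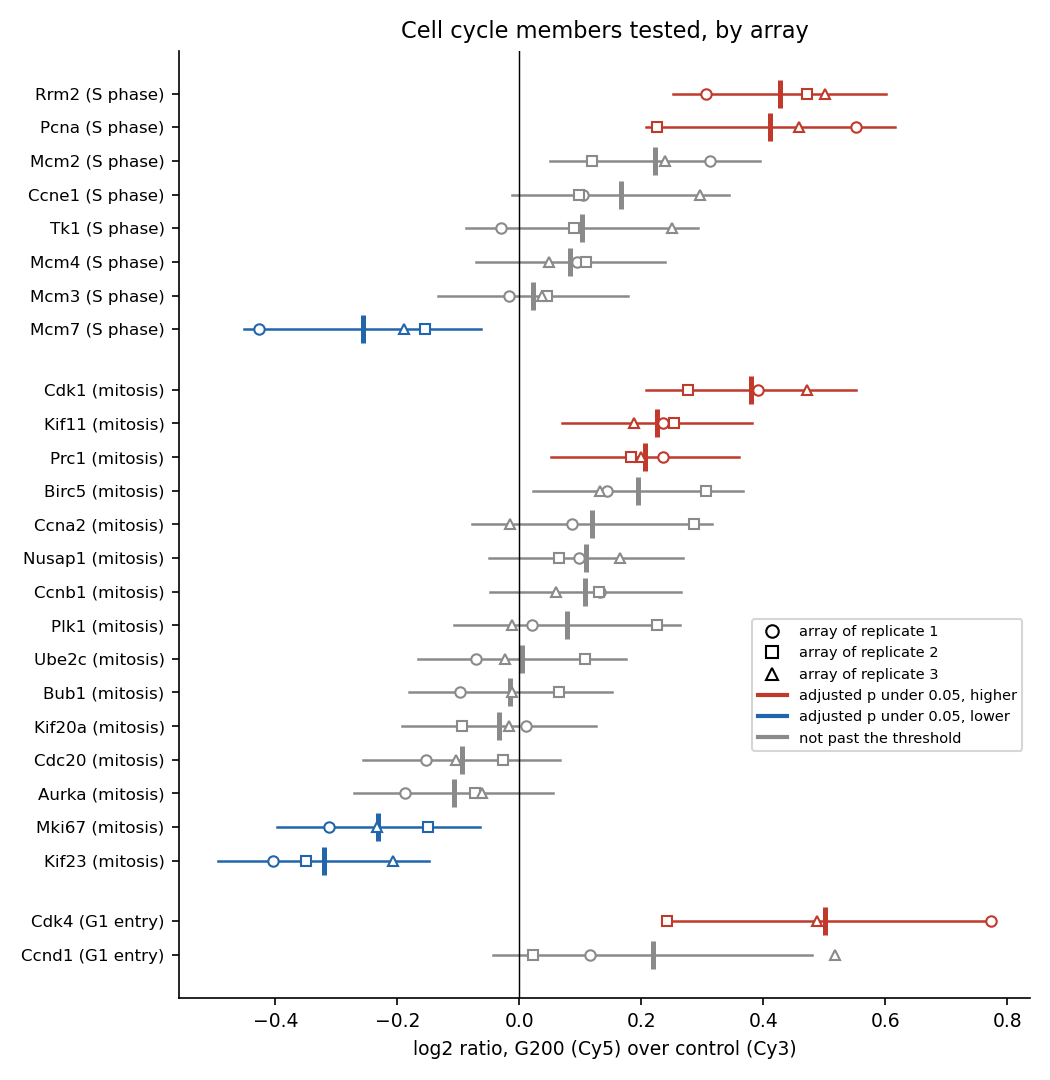
Log2 ratio of G200 over control on each array (open symbols) for the 25 members tested, with the mean (vertical bar) and its 95% confidence interval from limma (line). Pcna, Rrm2, Cdk1 and Cdk4 lie above 0 on each array, and Kif23, Mcm7 and Mki67 lie below it with loess; with median centring Mcm7 and Mki67 turned positive, and with no dye normalization Kif23 did too.

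The control regions of these genes carry known binding letters, and 4 are shown because in each phase they pair a gene that rose with one that fell. Promoter windows of 300 bases around the start were taken from RefSeq (GRCr8) for 29 of the 37 members. The letters of 3 kinds were searched on both strands. The first was the E2F type, given by TTTCCCGC, TTTGGCGC, TTTGCCGC or TTTCGCGC, where the E2F factors of the G1 to S step bind. The second was TTTGAA, known as the cell cycle homology region of mitosis genes, and the third was CCAAT. Capitals mark a match on either strand, and in Mcm7 an E2F type match and CCAAT overlap by 1 base.
Pcna, chr3:139955771-139956070, minus strand: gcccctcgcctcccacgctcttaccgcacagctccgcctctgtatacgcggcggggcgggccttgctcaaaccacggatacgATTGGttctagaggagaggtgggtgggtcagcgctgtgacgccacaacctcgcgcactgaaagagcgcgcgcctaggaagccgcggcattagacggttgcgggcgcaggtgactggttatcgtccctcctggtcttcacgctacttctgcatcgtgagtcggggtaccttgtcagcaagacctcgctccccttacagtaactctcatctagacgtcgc
Mcm7, chr12:22163129-22163428, minus strand: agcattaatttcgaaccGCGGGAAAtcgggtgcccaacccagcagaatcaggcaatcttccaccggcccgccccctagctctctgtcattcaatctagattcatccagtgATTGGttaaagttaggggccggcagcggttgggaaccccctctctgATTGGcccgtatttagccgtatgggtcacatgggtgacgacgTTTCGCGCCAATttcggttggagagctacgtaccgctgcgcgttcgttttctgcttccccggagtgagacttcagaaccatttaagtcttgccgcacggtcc
Cdk1, chr20:19265043-19265342, plus strand: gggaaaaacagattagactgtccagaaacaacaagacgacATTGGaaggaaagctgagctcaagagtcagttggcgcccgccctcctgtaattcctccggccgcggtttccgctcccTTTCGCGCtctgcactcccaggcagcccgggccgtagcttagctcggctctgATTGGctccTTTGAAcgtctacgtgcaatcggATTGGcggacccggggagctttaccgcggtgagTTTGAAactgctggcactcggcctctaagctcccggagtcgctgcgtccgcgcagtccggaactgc
Kif23, chr8:71320535-71320834, minus strand: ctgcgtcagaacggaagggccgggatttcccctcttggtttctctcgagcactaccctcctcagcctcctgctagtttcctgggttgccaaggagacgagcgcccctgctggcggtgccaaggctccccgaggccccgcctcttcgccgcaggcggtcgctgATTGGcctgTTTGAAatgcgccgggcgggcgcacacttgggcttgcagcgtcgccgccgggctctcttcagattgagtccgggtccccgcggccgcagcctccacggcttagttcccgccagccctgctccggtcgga

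E2F type letters were found in 6 of 10 S phase windows and in 1 of 18 mitosis windows, against 2.14% of all 33469 promoters. TTTGAA was found in 1 of 10 S phase windows and 13 of 18 mitosis windows, against 18.3% of all promoters, and CCAAT in 6 and 15, against 37.5%. Mcm7 held 2 E2F type matches and Pcna none. With loess Pcna rose and Mcm7 fell, and Mcm7 turned positive with median centring and with no dye normalization. Cdk1 held 1 E2F type match and 2 of TTTGAA, and Kif23 held 1 of TTTGAA. The genes shown were picked for their directions, so they cannot tell whether letters and direction go together. Only 5 members that rose and 3 that fell had a window, and a link was not tested. A match is a description of the letters, and no match says only that they are not in this window.

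In S phase, Rrm2, the small subunit of the ribonucleotide reductase that makes deoxynucleotides, had log2 ratios of 0.31, 0.47 and 0.50 on the arrays of replicates 1, 2 and 3. Its mean was 0.43 ± 0.11 (SD, n = 3; adjusted p = 0.00733 from limma), a rise of 1.34-fold. Before dye normalization its net intensity was 130.0, 168 and 157.5 in the control and 466, 347.5 and 471 in G200. A second Rrm2 probe was above background on no array.

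Pcna, the sliding clamp, had log2 ratios of 0.55, 0.23 and 0.46, which average 0.41 ± 0.17 (SD, n = 3; adjusted p = 0.0131 from limma), or 1.33-fold. The net intensity in the control was 113, 124 and 113.5, and that in G200 was 500.0, 202 and 327.5. The median net intensity of all spots in red varied in the same order, at 54.5, 29.5 and 39. All 3 arrays were above 0, and that of replicate 2 was the lowest.

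Mcm7, a subunit of the helicase and the brightest member, had log2 ratios of -0.43, -0.15 and -0.19. These average -0.26 ± 0.15 (SD, n = 3; adjusted p = 0.0477 from limma). Replicate 1 was the lowest. With median centring the mean was 0.38, which is 0.12 above the median of all genes, and with no dye normalization it was 0.74. With an offset of 0 its mean was -0.29, slightly further from 0, and its adjusted p was 0.102. Mcm7 thus lay below the median of all genes with loess and above it with median centring.

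In the main limma fit, with loess and an offset of 50, the other helicase subunits did not pass the threshold. Mcm2, Mcm3 and Mcm4 passed it as higher with median centring and with no dye normalization. In the main fit Mcm2 came nearest, with 0.31, 0.12 and 0.24 on the 3 arrays, which average 0.22 ± 0.098 (SD, n = 3; adjusted p = 0.0506 from limma). Mcm2 passed in 8 of the 17 alternatives of processing, among them an offset of 0 (0.44) and the log ratio of the scanner software (0.78). Mcm4 had 0.095, 0.11 and 0.048, averaging 0.084 ± 0.032 (SD, n = 3). Mcm3 had -0.017, 0.045 and 0.038, averaging 0.022 ± 0.034 (SD, n = 3). For Mcm2 and Mcm4 a second probe was above background on no array. The second probe of Mcm3 passed in green only and had a mean of -0.07, opposite in sign to the brighter one. With loess the 4 subunits measured ranged from -0.26 to 0.22, and with median centring all 4 were positive, from 0.12 to 0.28 above the median of all genes.

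Tk1, the thymidine kinase of S phase, had log2 ratios of -0.029, 0.090 and 0.25, averaging 0.10 ± 0.14 (SD, n = 3). Ccne1, the cyclin of the G1 to S step, had 0.10, 0.098 and 0.30, averaging 0.17 ± 0.11 (SD, n = 3), and did not pass the threshold. It was well above background in red on all arrays and in green on 2. Ccne1 passed as higher with an offset of 0 (0.51) and with the log ratio of the scanner software (0.64), and had 0.093 with median centring. The 8 S phase genes tested had a median of 0.13, or 0.099, 0.10 and 0.24 by array, beside a median of -0.05 over all genes tested. The value was positive for 7 genes and negative for Mcm7 alone.

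In mitosis, Cdk1, the kinase that starts it, had log2 ratios of 0.39, 0.28 and 0.47, averaging 0.38 ± 0.098 (SD, n = 3; adjusted p = 0.00993 from limma), or 1.30-fold. Its cyclin partners showed smaller values. Ccnb1 had 0.13, 0.13 and 0.061, averaging 0.11 ± 0.041 (SD, n = 3; adjusted p = 0.225 from limma). With the log ratio of the scanner software Ccnb1 passed as higher, at 0.55 beside 0.67 for Cdk1. It passed too with no dye normalization, at 0.57 beside 1.17. Ccna2 had 0.086, 0.29 and -0.015 by its brighter probe, averaging 0.12 ± 0.15 (SD, n = 3), and a mean of -0.04 by another probe that also passed.

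Kif11, the motor that pushes the spindle poles apart, had log2 ratios of 0.24, 0.25 and 0.19, averaging 0.23 ± 0.034 (SD, n = 3; adjusted p = 0.0364 from limma), or 1.17-fold. Prc1, which bundles microtubules of the central spindle, had 0.24, 0.18 and 0.20, averaging 0.21 ± 0.027 (SD, n = 3). Its control signal passed the background mark on 0 of the 3 arrays and its G200 signal on 3 of 3, so its ratio of 1.15-fold (adjusted p = 0.0467 from limma) is set against a signal that was not detected. With median centring its mean was 0.15 (adjusted p = 0.286). No bound apart from the measured ratio could be set, since the control signal lay above the lowest signal that was marked as detected. A second Prc1 probe was above background on no array.

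Kif23, the kinesin of the cleavage furrow, had log2 ratios of -0.40, -0.35 and -0.21, averaging -0.32 ± 0.10 (SD, n = 3; adjusted p = 0.0170 from limma), a fall of 1.25-fold. Its net intensity was 44, 41 and 35 in the control and 35, 14 and 23 in G200, and it was well above background in red on 2 of 3 arrays. With an offset of 0 its mean was -0.83, and with the log ratio of the scanner software it was -1.15. With median centring the mean was about as large, at -0.33, but its call was lost (adjusted p = 0.0569 from limma). With no dye normalization its mean was 0.025, which is still 0.59 below the median of all genes there.

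Mki67, the marker of dividing cells known as Ki-67, was measured by 3 probes that all passed in both channels. The brightest gave -0.31, -0.15 and -0.23, averaging -0.23 ± 0.081 (SD, n = 3; adjusted p = 0.0412 from limma). With an offset of 0 its mean was -0.32, further from 0, and its adjusted p was 0.0642. The mean over its 3 probes was -0.12 (adjusted p = 0.184). The other probes had means of -0.16 and 0.037, the latter with a positive ratio on each array, so the probes of this gene differed in sign. With median centring the mean of the brightest was 0.19, and relative to the median of all genes it was -0.08. Of the 3 members with more than 1 probe that passed, Mki67, Ccna2 and Mcm3, all 3 had probes of opposite sign.

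Kif11, Prc1, Cdk1, Mki67 and Nusap1 were each printed at 10 places on every array, which gives their spread between spots of 1 array only. For Cdk1, each of the 8, 9 and 8 spots kept on replicates 1, 2 and 3 was above 0, with an SD over spots of 0.085, 0.10 and 0.070. All spots of Kif11 that were kept, 10, 10 and 9, were above 0 as well, and 1 of the 10 of Prc1 on replicate 3 was not. For Mki67 all 10 spots of each array were below 0, from -0.49 to -0.089. Nusap1, a spindle protein that did not pass the threshold, had array values of 0.098, 0.065 and 0.16, averaging 0.11 ± 0.051 (SD, n = 3; adjusted p = 0.226 from limma), and had spots on both sides of 0 on replicates 1 and 2. Spots of 1 probe share its dye effect, and the side on which those of Mki67 lie was set with loess.

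**Figure D3:**
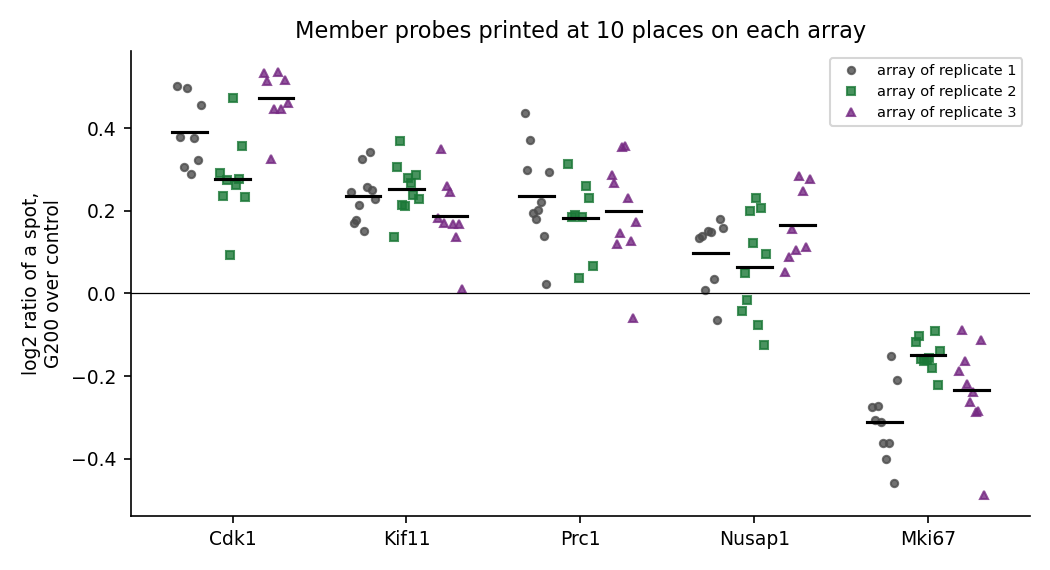
Log2 ratio of G200 over control for each spot of the 5 member probes printed at 10 places, by array, after loess; bars are means of the spots of 1 array. All spots kept for Cdk1 and Kif11 lie above 0 and all for Mki67 below 0 (with median centring or no dye normalization the mean of Mki67 turned positive), while Nusap1 has spots on both sides.

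Of the other mitosis genes, Birc5, the survivin of the chromosomal passenger complex, had 0.14, 0.31 and 0.13, averaging 0.19 ± 0.098 (SD, n = 3; adjusted p = 0.0747 from limma). Birc5 passed as higher with the log ratio of the scanner software (0.49), with median centring (0.49) and with no dye normalization (0.85). Plk1, a kinase of spindle assembly, had 0.021, 0.23 and -0.013, averaging 0.078 ± 0.13 (SD, n = 3). Aurka, the kinase of the spindle poles, had -0.19, -0.073 and -0.061, averaging -0.11 ± 0.070 (SD, n = 3). Cdc20 had -0.15, -0.027 and -0.10, averaging -0.094 ± 0.063 (SD, n = 3). Aurka and Cdc20 lay below 0 on each array with loess and turned positive with median centring and with no dye normalization, as the median of all genes did, and relative to that median they were at -0.22 and -0.099 there.

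The remaining mitosis genes changed sign between arrays. Ube2c, the ubiquitin-conjugating enzyme of the anaphase-promoting complex, had -0.071, 0.11 and -0.024, averaging 0.0044 ± 0.093 (SD, n = 3). Bub1, a kinase of the spindle checkpoint, had -0.097, 0.065 and -0.012, averaging -0.015 ± 0.081 (SD, n = 3). Kif20a, a kinesin of cytokinesis, had 0.011, -0.094 and -0.017, averaging -0.033 ± 0.054 (SD, n = 3). Over the 15 mitosis genes tested the median was 0.08, with 0.021, 0.11 and -0.013 on replicates 1, 2 and 3, and 9 genes were positive and 6 negative. This median lay 0.13 above that of all genes with loess and 0.08 below it with median centring, and it was 0.0040 without replicate 2. That of the S phase genes lay 0.18 above all genes with loess and 0.22 with median centring. Whether S phase and mitosis differed was not tested.

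At G1 entry, Cdk4 had log2 ratios of 0.77, 0.24 and 0.49, averaging 0.50 ± 0.27 (SD, n = 3; adjusted p = 0.0155 from limma), or 1.42-fold. With loess and an offset of 50 it had the largest mean of the 25 members and, with Ccnd1, the largest spread, while Rrm2 and Pcna had larger means with median centring and with no dye normalization. Without replicate 1 its mean was 0.365, below those of Rrm2 (0.487) and Cdk1 (0.375). Its net intensity was 51.5, 49 and 47 in the control and 284, 71.5 and 136 in G200. Ccnd1, the cyclin D1 partner of Cdk4, had 0.12, 0.022 and 0.52, averaging 0.22 ± 0.26 (SD, n = 3; adjusted p = 0.153 from limma), so that replicate 3 stood above the other arrays. Ccnd1 passed as higher with median centring (0.71, or 0.44 above the median of all genes) and with no dye normalization (1.06).

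The size of these ratios depended on how low signals and dyes were treated. The offset of 50 added to each corrected intensity draws the ratios of dim probes toward 0, and with an offset of 0 the mean of Pcna was 0.53, that of Rrm2 0.52, that of Cdk1 0.54 and that of Cdk4 0.85. Over all genes the median was -0.05 with loess, 0.27 with median centring and 0.62 without dye normalization. Relative to that median, Pcna lay 0.46 higher with loess and 0.66 higher with median centring, Rrm2 0.48 and 0.71, Cdk1 0.43 and 0.55, and Cdk4 0.55 and 0.56. The 4 genes were past the adjusted threshold under each of these scalings. Prc1 was 0.26 above the median of all genes with loess and 0.11 below it with median centring.

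**Figure D4:**
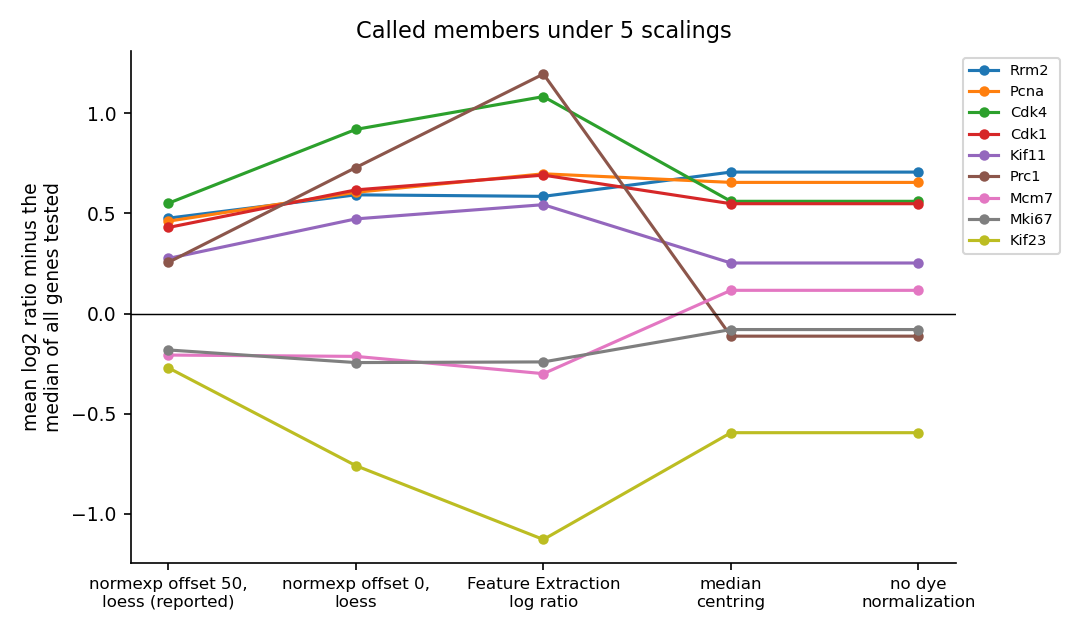
Mean log2 ratio minus the median of all genes tested, under 5 treatments of background and dyes, for the 9 called members; lines join the values of a gene. Rrm2, Pcna, Cdk4, Cdk1 and Kif11 stay above 0 and Kif23 and Mki67 below, while Mcm7 and Prc1 cross 0 with median centring.

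Further genes of the same machinery showed small and mixed values. Of 67 further replication genes 35 were tested, with a median log2 ratio of 0.035, and 3 were higher and 1 was lower at the adjusted threshold, or 11.4% called against 37.5% of all genes. Prim2, the large subunit of primase, had a mean of 0.31, and Rfc5, a subunit of the clamp loader for Pcna, one of 0.27. Nasp, a histone chaperone, had 0.23 by its brightest probe, but -0.26 as the mean over its probes that passed. Without replicate 1 another Nasp probe was used, at -0.49. Pold2, a subunit of DNA polymerase delta, had -0.24.

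Of 81 further mitosis genes 38 were tested, with a median of 0.072, and 2 were higher and 3 lower, or 13.2% called against 37.5% of all genes. Zwint, a kinetochore protein, had a mean of 0.43 and the kinesin Kif22 one of 0.27. Tacc3, Cks1b and Mad1l1 had -0.31, -0.31 and -0.30. Of 25 genes of the anaphase-promoting complex and the checkpoint kinases 15 were tested, with a median of -0.0064 and 20.0% called. Anapc15 and Anapc2 were higher, at 0.42 and 0.29, and Atrip, the partner of the checkpoint kinase Atr, was lower at -0.24. Of these falls and that of Pold2, each turned positive with median centring and with no dye normalization, where all genes moved up as well. Relative to the median of all genes there, Tacc3 (-0.098), Cks1b (-0.21) and Mad1l1 (-0.17) were still below 0, and Atrip and Pold2 were at 0.08.

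Of 27 G1 cyclins and members of the E2F and RB families 16 were tested, with a median of -0.027, 0 higher and 3 lower in limma's adjusted test, and 3 higher and 3 lower at an unadjusted p under 0.05. The share called was 18.8%. Myc, a transcription factor that promotes growth, had log2 ratios of -0.72, -0.49 and -0.72, averaging -0.65 ± 0.13 (SD, n = 3; adjusted p = 0.00250 from limma). Its mean was -1.10 with an offset of 0, -0.40 with median centring and -0.043 with no dye normalization, where its call was lost (adjusted p = 0.857). E2f3 had a mean of -0.50 and E2f6, a repressor of the family, one of -0.35. With median centring their calls were lost, at -0.26 and -0.30, and with no dye normalization E2f3 was at 0.090 and E2f6 at 0.053, where the median of all genes was 0.62. Of 23 inhibitors and quiescence genes 16 were tested, with a median of -0.0043, 1 higher and 3 lower, a lower share called than the 37.5% of all genes. Cdkn1a, which encodes the inhibitor p21, had log2 ratios of -1.52, -0.60 and -0.98 on the 3 arrays, averaging -1.03 ± 0.46 (SD, n = 3; adjusted p = 0.00607 from limma). It lost its call with median centring, at -0.25 (adjusted p = 0.121), and was at 0.10 with no dye normalization. Btg2 and Tob2, a related pair of antiproliferative genes, had -0.51 and -0.44, and Ccng1, like Cdkn1a a target of p53, had 0.48. The values of Btg2 and Tob2 turned positive with median centring and with no dye normalization, and relative to the median of all genes there they were at -0.21 and -0.0066.

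**Figure D5:**
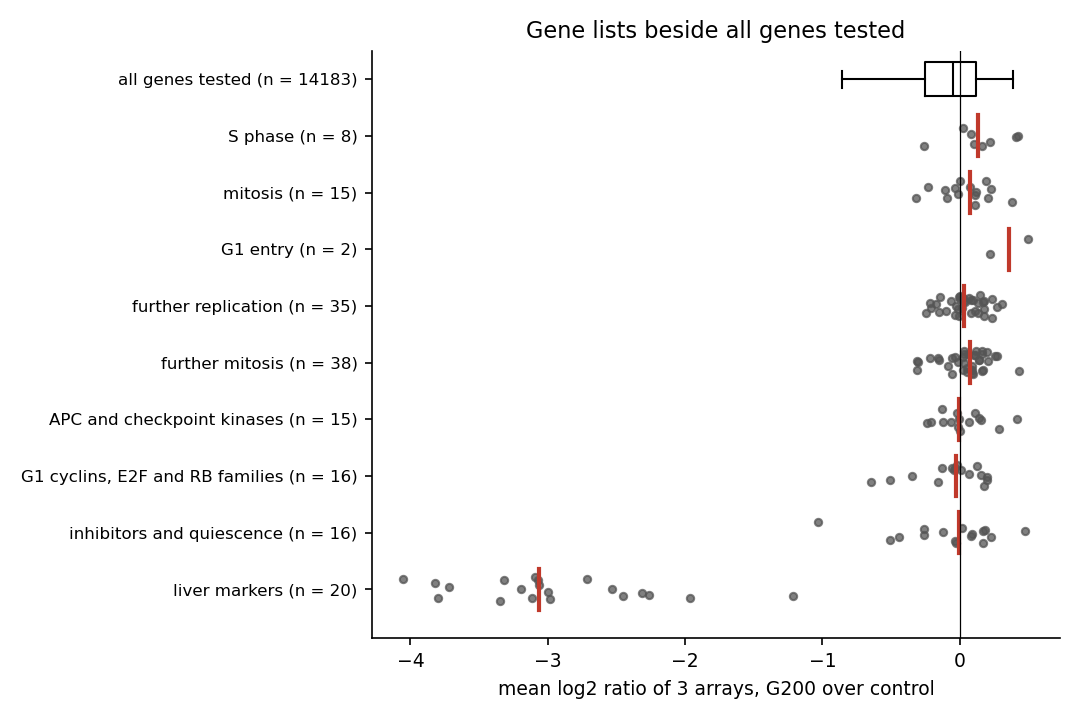
Mean log2 ratio of each tested gene (points) and list median (red bar), beside all genes tested (box: quartiles and median; whiskers: 5th to 95th percentile). The members and the further lists of the cycle have medians between -0.027 and 0.36 and liver markers one of -3.07; all genes tested have a median of -0.05, and of 0.27 with median centring.

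The labelled tissue was checked with marker genes. Of 22 kidney tubule and glomerulus markers 20 were tested, well above background, and Calb1 and Pvalb were not. The list had a median of 0.10, with 0.30, 0.042 and -0.054 on replicates 1, 2 and 3. In it 3 genes were higher and 3 lower, or 30% called against 37.5% of all genes. Umod, the brightest of them, had a mean log2 ratio of 0.87, and Lrp2, of the proximal tubule, had 0.26, but 0.061 as the mean over its probes that passed (adjusted p = 0.614). Slc4a1, the anion exchanger of intercalated and red cells, had -0.68 and Pax8, a kidney transcription factor, -0.37. Pax8 turned positive with median centring and with no dye normalization, and Slc4a1 with no dye normalization, and relative to the median of all genes there they were at 0.0089 and -0.28.

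Liver markers were present as well, mainly in the control. Of 22, 20 were tested and all 20 were lower, against 26.0% of all genes. Their median was -3.07 (-1.62, -3.17 and -4.31 on replicates 1, 2 and 3), and Cps1 and Tat were not well above background. The summed normalized signal of the list, with Ttr as its brightest gene, was 223300, 251300 and 260800 in the control and 65940, 26240 and 10440 in G200. The largest falls were those of Apoc1, Alb and Fabp1, at -4.05 ± 1.67, -3.82 ± 1.81 and -3.80 ± 1.53 (SD, n = 3), and with limma's robust variance model these 3 lost their call (the lowest adjusted p was 0.0612). The part of this difference in the values of the cell cycle genes was not tested. On the same arrays the S phase median was 0.099, 0.10 and 0.24, and the mitosis median was 0.021, 0.11 and -0.013.

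Blood and stromal cells can also divide. Of 13 erythroid markers 5 were tested, with Hbb the brightest and a median of -0.36, which by array was -0.0066, -0.12 and -0.65, so that replicate 3 was the lowest. The list summed to 31980, 35020 and 40590 in the control and to 35250, 33100 and 17510 in G200. Of the 5 tested, 60% were called, against 37.5% of all genes. Among those called, Klf1 was kept for testing through the control channel alone. Markers not well above background included Epb42, Gata1, Rhag and Sptb. Tfrc was higher at 0.28, and Ahsp was lower at -0.37, with a positive value under median centring and with no dye normalization, which is 0.23 below all genes there. Klf1 was called lower, with its control signal detected on 3 arrays and its G200 signal on 0, and its mean depended on the offset, at -0.31 with 50 and -1.20 with 0. Of 15 lymphocyte markers 4 were tested, at a median of -0.06. At the adjusted threshold limma called 0 of them, against 37.5% of all genes, and 1 at an unadjusted p under 0.05. Not well above background were Cd2, Cd22, Cd3e, Cd4, Cd5, Cd79b, Cd8a, Il7r and Lck. The summed signal was 398.8 to 413 in the control and 368.9 to 408.3 in G200, with Cd3d the brightest.

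Of 15 macrophage and neutrophil markers 9 were tested, with a median of -0.06. Of these 1 was higher and 1 lower, or 22.2% called against 37.5% of all genes. Lyz2, the brightest, was higher at 0.60, C1qb, a complement gene, was lower at -0.43 with loess and at 0.22 with median centring and 0.58 with no dye normalization (0.044 below all genes there), and the list summed to 8097 to 8426 in the control and to 13020, 9145 and 12080 in G200. Of 14 stroma and endothelium markers 12 were tested, with a median of 0.05. Of these 2 were higher and 1 lower, or 25% called against 37.5% of all genes. Dcn and Pdgfra, of fibroblasts, were higher at 1.09 and 0.44, and Col3a1 was the brightest. Pecam1, of endothelium, was lower at -0.56 with loess, and at 0.14 with median centring and 0.49 with no dye normalization, which is 0.13 below all genes there. Of 10 markers of injured tubules, where dividing cells are known to appear, 8 were tested, with a median of -0.019. Of these 1 was higher and 3 were lower, or 50% called against 37.5% of all genes. Among the lower ones, Krt20 was kept for testing through the control channel alone. Havcr1, the marker known as Kim-1, was not well above background. Lcn2 was higher at 0.35. Krt18 was lower at -1.24, and was at -0.52 with median centring and at -0.16 with no dye normalization, where its call was lost (adjusted p = 0.535). Clu was lower at -0.29, with a positive value under median centring and with no dye normalization, which is 0.076 above all genes there. Krt20 was called lower, with its G200 signal detected on 0 of 3 arrays, and had -0.30 with an offset of 50 and -1.25 with 0 (adjusted p = 0.0555). The part of these cells in the values of the cell cycle genes was not tested.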

How the data were processed

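The authors deposited the output of Agilent Feature Extraction (version 9.3.2.1 by the submitters' notes and 11.5.1.1 by the file headers), with uncorrected median intensity in green and red for spots and for the surrounding background, and a log10 ratio of red over green that is background-subtracted and dye-normalized. Here the intensities were corrected with limma 3.58.1 in R 4.3.3 (normexp, offset 50) and normalized by loess within each array, with control spots at weight 0. Outlier spots were left out (635, 736 and 945 by array) and replicate spots averaged. Of 30367 probes, 18355 (60.4%) were matched to a symbol of RefSeq GRCr8. The mean log2 ratio was tested against 0 by a two-sided moderated t-test (lmFit, eBayes), and p-values were adjusted by Benjamini-Hochberg across 14183 genes. The 3 green channels varied less between arrays than replicate spots did (median variance ratio 0.547, against 5.95 in red), so the control was counted as 1 sample and its own spread is left out. The number of arrays limits the precision.

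The members and gene lists were chosen with earlier results of these data known. Every member is named, and from each further list and marker list the at most 3 largest rises and 3 largest falls past the threshold with 1 sign on all arrays, except that not every kidney marker this picks is named. The genes whose promoters are shown were chosen after values were seen. Simulated arrays served as a test of the code.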

Additional observations from a re-analysis of the deposited data

How the results depend on the processing

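Over 17 alternatives, 319 of the 422 values of members kept their direction and side of the threshold, 55 lost the call, 30 gained one and 18 changed sign; of 678 values of the further genes that the naming rule picks, 429 kept both, 219 lost the call and 30 changed sign. The cause of the changes was not tested. The 6 members higher became 11 with the Feature Extraction log ratio and with median centring, and 19 with no dye normalization. Of all genes, 15.2%, 35.0% and 56.5% were higher there, against 11.5%. After adjustment they became 0 with a t-test on the 3 log ratios and 0 with one of unequal variance (6 and 5 without it). The paper's methods describe only the latter kind. Without adjustment each test called 4 of the 6, leaving out Pcna and Cdk4 in the first and Rrm2 and Cdk4 in the second. Among all genes, 0% and 0.465% were higher with these tests after adjustment, and 9.67% and 7.71% without it. The 3 members lower became 1 with an offset of 0, the Feature Extraction log ratio, the filter on both colours and separate channels. The unadjusted t-test with unequal variance gave 1 as well. In these settings 21.7% to 24.5% of all genes were lower, against 26.0%. The 3 became 0 with median centring (8.95% of all genes lower), no dye normalization (2.14%) and both adjusted t-tests (0.0141% and 2.07%). Leaving out 1 replicate gave 0 to 5 members higher and 0 to 1 lower, 0 of both without replicate 3. Without replicates 1, 2 and 3, 5.87%, 11.4% and 1.08% of all genes were higher, and 18.3%, 22.9% and 9.44% were lower. The S phase median of 0.13 became 0.29 with an offset of 0, 0.39 with the Feature Extraction log ratio, 0.49 with median centring and 0.84 with no dye normalization, or 0.22 above all genes in the last pair, and 0.10 to 0.17 without 1 replicate. Without the filter on dim probes the S phase median was 0.081 and the mitosis median 0.031. The mitosis median of 0.08 became 0.18 with an offset of 0, 0.14 with the Feature Extraction log ratio and 0.039 with the mean over probes. It was 0.19 with median centring and 0.54 with no dye normalization, or -0.08 relative to all genes in this pair. Without 1 replicate it was 0.004 to 0.082. Of the genes called, 30.6% were higher, and 79.6% with median centring, 96.3% with no dye normalization, 10.3% without replicate 3, 18.3% with the adjusted t-test of unequal variance and 0% of 2 genes with the other. With median centring the sign turned for Ahsp (0.032), Atrip (0.35), Aurka (0.051), Btg2 (0.057), Bub1 (0.18), C1qb (0.22), Cdc20 (0.17), Cks1b (0.051), Clu (0.34), Kif20a (0.11), Mad1l1 (0.091), Mcm7 (0.38), Mki67 (0.19), Pax8 (0.27), Pecam1 (0.14), Pold2 (0.35), Tacc3 (0.17) and Tob2 (0.26). With no dye normalization it turned for Ahsp (0.39), Atrip (0.70), Aurka (0.40), Btg2 (0.41), Bub1 (0.53), C1qb (0.58), Cdc20 (0.52), Cdkn1a (0.10), Cks1b (0.41), Clu (0.70), E2f3 (0.090), E2f6 (0.053), Kif20a (0.46), Kif23 (0.025), Mad1l1 (0.45), Mcm7 (0.74), Mki67 (0.54), Pax8 (0.63), Pecam1 (0.49), Pold2 (0.70), Slc4a1 (0.34), Tacc3 (0.52) and Tob2 (0.61). It also turned for Bub1 (0.059) and Kif20a (0.070) with the Feature Extraction log ratio, for Mcm3 (-0.024) and Nasp (-0.26) with the mean over probes, for Bub1 (0.027) and Nasp (-0.49, from another probe) without replicate 1 and for Ube2c (-0.048) without replicate 2, and without 1 replicate Bub1 ranged from -0.054 to 0.027 and Ube2c from -0.048 to 0.042. A fit with the slide as random block could not be run, since the arrays lay on 1 slide. Signal near background left 9 members with a probe untested.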
